A study of Rattus norvegicus with 38 samples.

Results

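The row of counts that takes the largest part of every library was ENSRNOG00000043866, designated as the mitochondrial 16S rRNA and called the 16S row here. It is 1 of 32883 Ensembl gene IDs in the count table, and it was chosen by its share of each library's counts over the groups and by how that share moved with the number of IDs detected. Those values are therefore given as descriptions, with no test. The table pairs no ID with a gene name, and 0 of the 32883 IDs matched the reference table used here, so the designation of the row was taken as given and no other ID is named as a gene. For the same reason the labelled vessels and neurons could not be checked against marker genes.

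The 16S rRNA is the RNA of the large subunit of the mitochondrial ribosome, which translates the few proteins encoded by mitochondrial DNA. It is transcribed from the heavy strand of that DNA, is present in many copies in cells rich in mitochondria such as neurons, and carries a short adenylate tail in mammals. The libraries were made with a kit that primes on runs of adenylates and is meant to read the 3' ends of transcripts. A count thus stands for a read near a primed run and not for a length of RNA. The counts do not show whether that run was the tail.

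The material was cut by laser from the frontal cortex of 19 rats, and each rat gave 1 library of blood vessels and 1 of neurons. Wistar rats, the normotensive control strain, were compared with SHRSP rats, a substrain of the spontaneously hypertensive rat bred for its liability to stroke, which becomes hypertensive without any added agent. Animals of the early stage were 24 to 25 weeks old and animals of the late stage 32 to 34 weeks old. In either material the early groups held 5 libraries for each strain, and the late groups held 4 from Wistar and 5 from SHRSP animals. The labels name no treatment or transgene for any group. Stage here means age as well, in both strains.

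Library totals ranged from 1198386 to 4963429 counts. The exact (Clopper-Pearson) 95% binomial interval of the share of the 16S row was between 0.0435 and 0.11 percentage points wide over the 38 libraries, which covers counting error only. In bulk material, more of an RNA per cell and more cells that carry it cannot be told apart.

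The 16S row held the most counts in all 38 libraries. Its share ran from 4.34% in a neuron library of an early Wistar rat to 40.6% in a vessel library of another early Wistar rat, with a median of 19.5%. It exceeded the next most abundant ID by 1.55 to 5.84 times. The mean share was 18.3% over the 19 neuron libraries and 18.5% over the 19 vessel libraries.

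In neurons the share was larger in most late libraries than in early ones of the same strain. The 5 early Wistar neuron libraries held 4.34%, 6.78%, 9.48%, 10.7% and 24.6% of their counts in the 16S row. The 4 late Wistar neuron libraries held 24.3%, 35.0%, 35.3% and 35.5%. Early animal 349, at 24.6%, lay just above late animal 351, at 24.3%, and these 2 libraries made the only overlap of the groups: 4 of the 5 early libraries lay below all 4 late ones. The group means were 11.2% ± 7.91 (SD, n = 5) early and 32.5% ± 5.48 (SD, n = 4) late, a difference of 21.3 percentage points and a ratio of 2.90.

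SHRSP neurons showed the same arrangement at lower late shares. The early libraries held 5.37%, 5.63%, 6.14%, 6.74% and 21.8%, with animal 383 at the top. The late libraries held 20.4%, 21.3%, 22.3%, 25.0% and 26.7%. Animal 383 fell inside the late range and the other 4 early libraries lay below all 5 late ones. The means were 9.13% ± 7.10 (SD, n = 5) and 23.1% ± 2.63 (SD, n = 5), 14.0 points apart.

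Vessel libraries differed less clearly by stage. Early Wistar vessels held 9.73%, 12.6%, 14.0%, 16.3% and 40.6%, and late Wistar vessels held 22.3%, 22.7%, 30.0% and 34.0%. Animal 349 was again the highest early library and here exceeded every late one, while the other 4 lay below all 4 late libraries. The means of 18.6% ± 12.5 (SD, n = 5) and 27.2% ± 5.73 (SD, n = 4) were 8.62 points apart, less than the SD of the early group. In SHRSP vessels the early shares were 6.45%, 7.09%, 7.21%, 7.54% and 17.7%, and the late shares 9.69%, 18.5%, 20.8%, 22.9% and 31.0%. Early animal 383 lay above late animal 378, and the remaining 4 early libraries lay below all late ones. The means of 9.20% ± 4.77 (SD, n = 5) and 20.6% ± 7.70 (SD, n = 5) differed by 11.4 points.

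**Figure D1:**
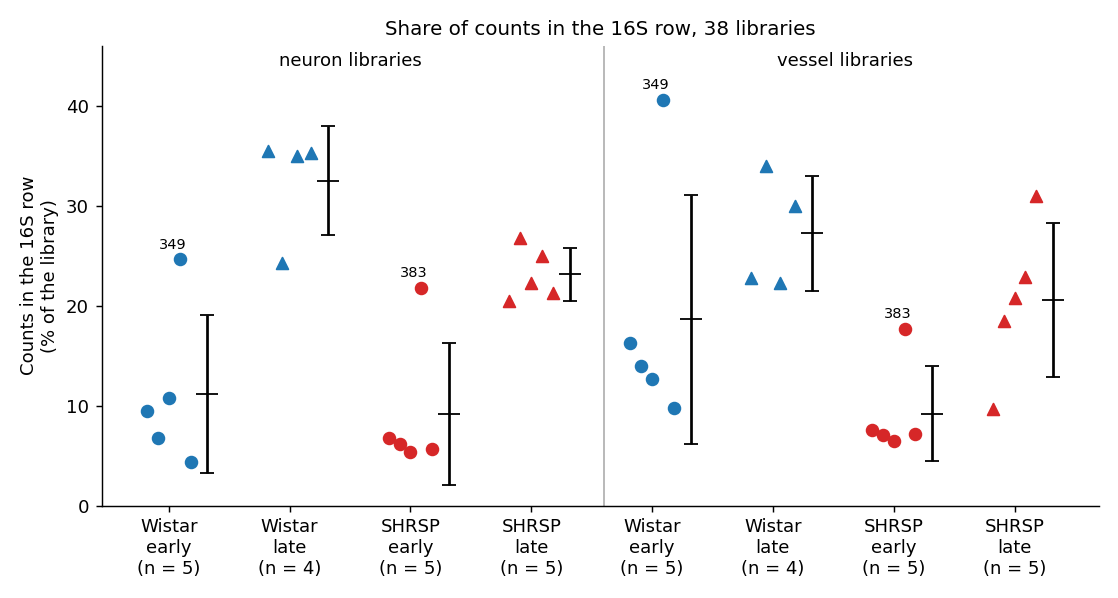
Share of each library's counts in the 16S row (y axis, % of the library) for the 8 groups of material, strain and stage (x axis), 1 point per library, with the group mean and SD as black bars. Late groups sit higher in each material and strain, and the early libraries of animals 349 and 383, marked by number, reach the late range in both materials.

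Both materials of animals 349 and 383 thus stood above the rest of their early groups. After these shares had been seen, the groups were summarised again without both animals. The late minus early differences were then 24.7 points in Wistar neurons, 17.2 in SHRSP neurons, 14.1 in Wistar vessels and 13.5 in SHRSP vessels, and the early and late ranges no longer overlapped in any of the 4. Leaving out libraries for their high share narrows the early ranges by construction.

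The size of the stage difference can also be read after the scaling used for testing other IDs. In the edgeR fit with TMM scaling, the fitted log2 fold of the 16S row, late against early, was 1.94 (SE 0.48) in Wistar neurons and 1.55 (SE 0.46) in SHRSP neurons. It was 0.46 (SE 0.52) in Wistar vessels and 1.24 (SE 0.50) in SHRSP vessels. These values are descriptions and no test, since the row was chosen by its shares over the same groups. The late strain difference minus the early one was -0.38 (SE 0.65) in neurons and 0.78 (SE 0.72) in vessels, also given without a test.

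Between strains the means of SHRSP were the lower ones in each of the 4 pairs of groups, and the ranges of the groups overlapped in all 4. The difference, SHRSP minus Wistar, was -9.37 points in late neurons, where 3 of the 4 Wistar libraries exceeded all 5 SHRSP libraries and animal 351 did not. It was -6.68 points in late vessels and -2.06 points in early neurons, each less than the larger SD of its pair. Without animal 349 the difference in early neurons turned to 1.30 points. In early vessels the difference was -9.44 points, also less than the larger SD, and without animals 349 and 383 it was -6.07 points, with the 4 remaining SHRSP libraries between 6.45% and 7.54% and the 4 remaining Wistar libraries between 9.73% and 16.3%.

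Ordered by mean share, the groups ran from late Wistar neurons (32.5%) through late Wistar vessels (27.2%), late SHRSP neurons (23.1%), late SHRSP vessels (20.6%), early Wistar vessels (18.6%), early Wistar neurons (11.2%) and early SHRSP vessels (9.20%) to early SHRSP neurons (9.13%). The 4 late groups came first and the 4 early groups after them. Each of the 7 gaps between neighbours in this order was smaller than the larger SD of the pair, and the ranges of every neighbouring pair overlapped. No neighbours were therefore separated beyond their spread.

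Both libraries of an animal could be set side by side, since the animal number in the labels ties them. The vessel library had the larger share in 11 animals and the smaller share in 8, with a mean difference of 0.187 points ± 7.95 (SD, n = 19). Over the animals as a whole the materials thus did not separate by their 16S share. The direction varied with the group: all 5 early Wistar rats had the larger share in vessels, by 7.44 points ± 5.19 (SD, n = 5), whereas 3 of 4 late Wistar rats and 4 of 5 late SHRSP rats had the larger share in neurons. In early SHRSP rats 4 of 5 had the larger share in vessels, by 0.802 to 1.58 points, and animal 383 had the larger share in neurons. Their mean difference was 0.0628 points ± 2.35 (SD, n = 5), and 1.10 points ± 0.338 (SD, n = 4) without animal 383.

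Among the 10 early animals the order of shares was similar in the 2 materials. Pearson's r was 0.861 and Spearman's rho 0.830 over these animals of both strains. Without animals 349 and 383, r was 0.679 and rho 0.667 over 8 animals. Among the 9 late animals r was 0.196 and rho 0.133. Over both strains together, an early animal with a high share in 1 material thus tended to have a high share in the other. No such order was seen over the late animals. Without animals 349 and 383 the early vessel shares of the strains did not overlap. The early order therefore includes the strain difference, and it was not examined within a strain.

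**Figure D2:**
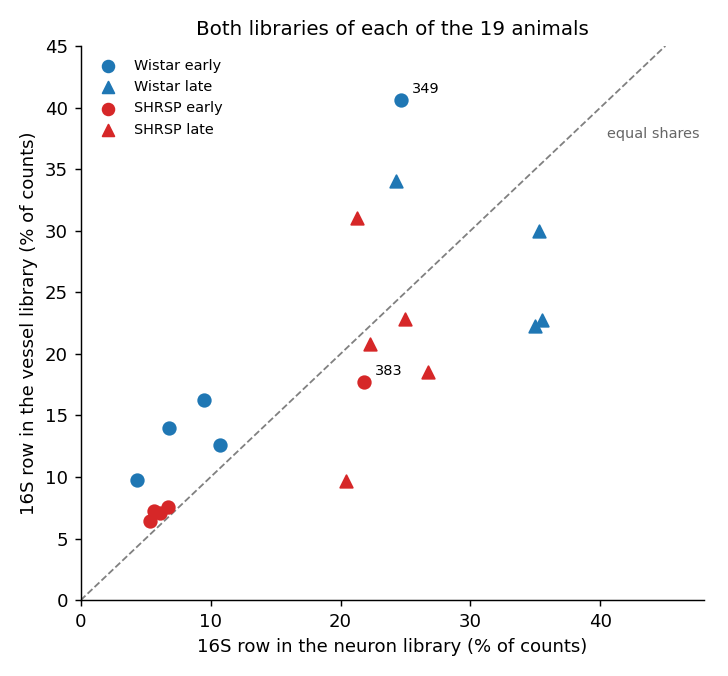
Share of the 16S row in the neuron library (x axis, % of counts) against that in the vessel library of the same animal (y axis, % of counts), 1 point per animal, with the line of equal shares. Early Wistar points lie above the line, and 7 of the 9 late points lie below it.

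The number of IDs detected, meaning IDs with at least 1 count, differed between the materials and was lowest in early vessels. Neuron libraries detected 9501 to 14305 IDs (median 13848) and vessel libraries 4104 to 11974 (median 9877). A library with a large share in 1 row has fewer counts left for all others, so detection was also computed at an equal depth of 1117581 counts outside the 16S row. By that measure early SHRSP vessels gave 5914 ± 2410 IDs (SD, n = 5) and late SHRSP vessels 10282 ± 922 (SD, n = 5). Early Wistar vessels gave 7470 ± 2595 (SD, n = 5) and late Wistar vessels 10853 ± 633 (SD, n = 4).

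Within early vessels, libraries with a larger 16S share detected more IDs. At equal depth, the 4 early SHRSP libraries with shares between 6.45% and 7.54% gave 3684 to 5909 IDs, and animal 383, at 17.7%, gave 9985. The early Wistar library of animal 349, at 40.6%, gave 11573, and the other 4 gave 5272 to 8470. Over the 10 early vessel libraries, r between share and IDs at equal depth was 0.876 and rho 0.903. Without animals 349 and 383, the 2 libraries farthest from the median share, r was 0.769 and rho 0.810. The relation was thus present in the remaining 8 libraries, which still include both strains.

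Over the 9 late vessel libraries, r was 0.725 and rho 0.483, and r was 0.705 without the 2 libraries farthest from the median share. Here detection spanned only 9156 to 11675 IDs. In neurons the 2 measures showed no steady relation: over the 10 early libraries r was 0.301 and rho 0.127, and without animals 349 and 383 r was -0.0834 and rho -0.571. Over the 9 late neuron libraries r was 0.423 and rho 0.333. Late neuron libraries gave 12622 to 13447 IDs, a narrow band, and the lowest neuron library, the early Wistar library of animal 343 with 9151 IDs, had a share of only 6.78%. With raw detection, uncorrected for depth, r was 0.865 in early vessels, 0.674 in late vessels, 0.299 in early neurons and 0.0637 in late neurons.

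**Figure D3:**
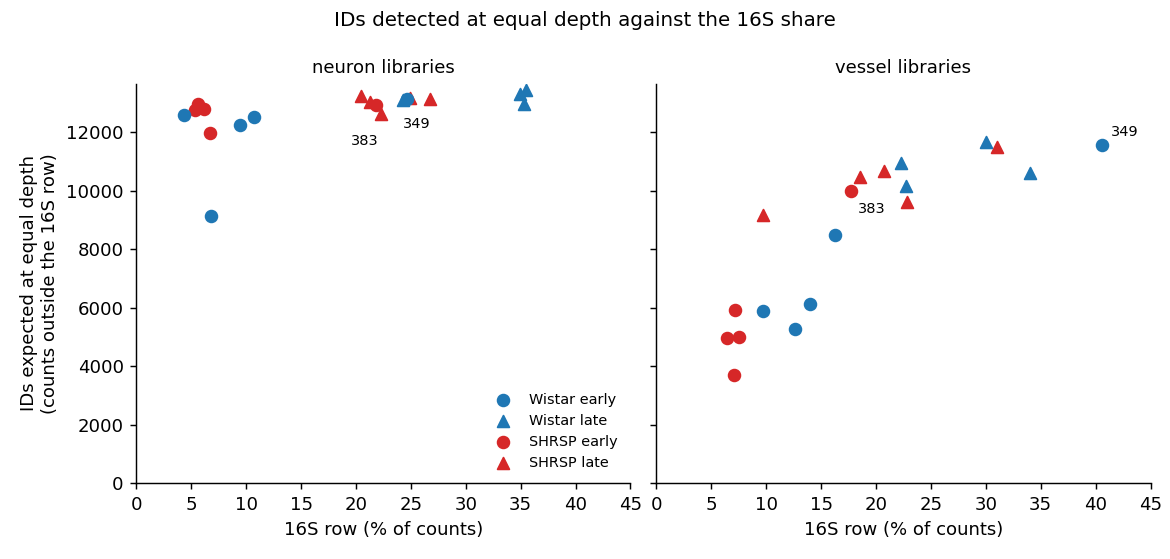
IDs expected at an equal depth of counts outside the 16S row (y axis, number of IDs) against the share of the 16S row (x axis, % of counts), 1 point per library, neurons on the left and vessels on the right. In vessels the early libraries with the lowest shares have the fewest IDs, and in neurons the points form a nearly level band with 1 low library.

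The total of counts outside the 16S row was set against the share in the same way, as a measure of depth, with no test. Over the 10 early neuron libraries r was 0.0674 and rho -0.382, and without animals 349 and 383 r was -0.435 and rho -0.786. Over the 9 late neuron libraries r was -0.472 and rho -0.417, and without the 2 libraries farthest from the median share r was -0.690 and rho -0.679. In neurons, libraries with a larger share thus mostly had fewer counts outside the row once the libraries farthest from the median share were left out. The counts outside the row are part of the total that divides the share, so a negative relation is partly arithmetic. In vessels r was 0.0386 and rho 0.0909 over the early libraries, and 0.210 and 0.0476 without animals 349 and 383. Over the late vessel libraries r was -0.416 and rho -0.25, and -0.126 and 0.0714 without the 2 farthest.

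The next most abundant ID in both materials was ENSRNOG00000030478, which took 1.49% to 11.1% of all counts in neuron libraries and 2.59% to 9.58% in vessel libraries. It was not used to choose the 16S row, so it was tested. As a share of the counts outside the 16S row, which removes the part of the change that a growing 16S row would give by itself, it held 1.55%, 2.07%, 2.29%, 4.43% and 6.15% in early Wistar neurons. In late Wistar neurons it held 8.28%, 10.6%, 11.2% and 11.3%. The groups did not overlap. In SHRSP neurons it held 2.97%, 3.14%, 3.16%, 3.33% and 7.25% early and 6.76%, 9.92%, 10.8%, 11.1% and 15.2% late, where animal 383 lay above late animal 381.

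ENSRNOG00000030478 rose with stage in neurons of both strains. With edgeR's quasi-likelihood test its log2 fold was 1.70 (SE 0.34, Benjamini-Hochberg adjusted p = 0.00841) in Wistar neurons and 1.49 (SE 0.33, adjusted p = 0.0108) in SHRSP neurons, against 9.31% and 8.85% of the 10833 tested IDs called in either direction in the same comparisons. Both calls held under every alternative run, with adjusted p up to 0.0446 and 0.0488. Its late strain difference minus its early one was -0.21 (SE 0.47) and did not pass, where 0.0% of the IDs tested in neurons were called.

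In vessels this ID did not pass with all libraries in the fit, which does not show that it did not change. Its mean share of counts outside the 16S row was 5.38% ± 3.74 (SD, n = 5) early and 8.39% ± 1.79 (SD, n = 4) late in Wistar vessels, and 3.98% ± 1.65 (SD, n = 5) and 8.47% ± 3.48 (SD, n = 5) in SHRSP vessels. The edgeR log2 fold was 0.52 (SE 0.41) in Wistar vessels, with an unadjusted p of 0.230, and 0.92 (SE 0.39, adjusted p = 0.284) in SHRSP vessels. Only 0.00908% of the 11011 tested IDs, 1 ID, was called in each of these comparisons. Without animals 349 and 383, left out after the data were seen, the fold in SHRSP vessels was 1.27 and passed (edgeR adjusted p = 0.0373). Of the 24 alternatives run for this comparison, this was the only 1 that passed. Animal 383 was the highest early SHRSP vessel library for this ID, at 6.81%, so leaving it out widens the stage difference by construction.

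None of the strain comparisons called ENSRNOG00000030478. Its edgeR log2 fold, SHRSP against Wistar, was 0.30 (SE 0.32) in early neurons, 0.08 (SE 0.34) in late neurons, -0.41 (SE 0.39) in early vessels and 0.00 (SE 0.41) in late vessels, with adjusted p of 0.696 or more. The share of tested IDs called in these comparisons was 0.222% and 0.0369% in early and late neurons and 0.254% and 0.0% in early and late vessels. Set per 100 counts of the 16S row, its mean count was 45.1 ± 11.04 (SD, n = 5) in early SHRSP neurons and 28.0 ± 7.71 (SD, n = 5) in early Wistar neurons. The late neuron values were 35.4 ± 7.27 (SD, n = 5) and 21.6 ± 2.82 (SD, n = 4). In vessels they were 40.6 ± 6.86 and 23.9 ± 7.72 early (SD, n = 5 each), and 33.1 ± 6.59 (SD, n = 5) and 22.7 ± 4.57 (SD, n = 4) late. The SHRSP mean was higher in all 4 pairs of groups, and the ranges overlapped in all 4. The mean 16S share, by which the ratio is divided, was lower in SHRSP in the same 4 pairs. The ratio thus partly restates that difference, and it was not tested because it rests on the 16S row.

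**Figure D4:**
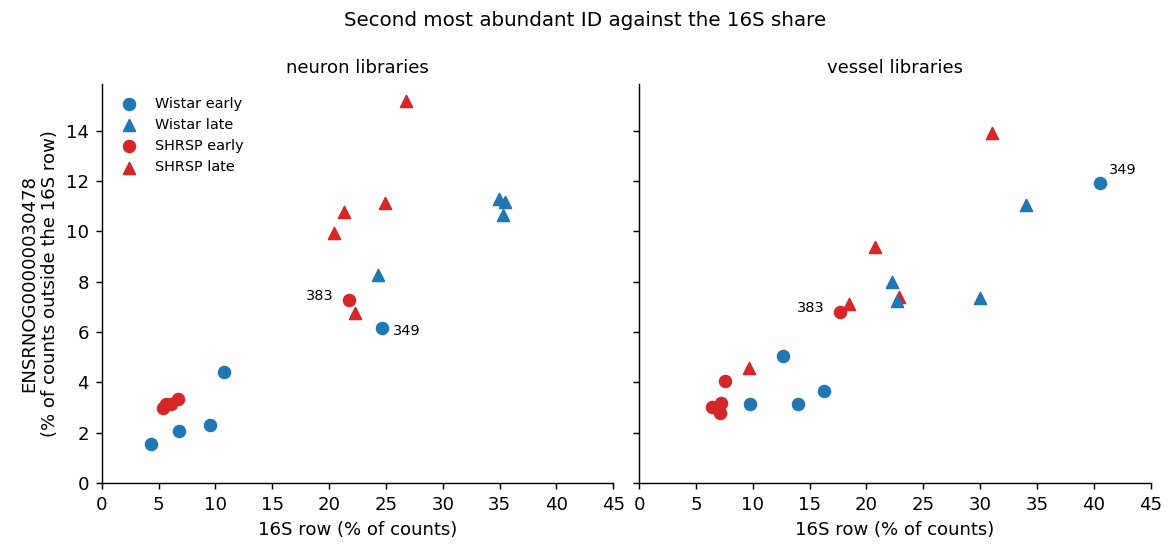
Share of ENSRNOG00000030478 among counts outside the 16S row (y axis, %) against the share of the 16S row (x axis, % of counts), 1 point per library, neurons on the left and vessels on the right. Libraries with a larger 16S share mostly also have a larger share of this ID, and SHRSP late points reach the highest values.

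Across libraries of 1 stage the 2 shares were set against each other as a description, with no test, since the 16S share chose the row. The sets hold both strains, whose shares differ, and have too few libraries for a value within each strain. Pearson's r was 0.903 over the 10 early neuron libraries, 0.939 over the 10 early vessel libraries, 0.760 over the 9 late vessel libraries and 0.315 over the 9 late neuron libraries. Spearman's rho was 0.685, 0.758, 0.7 and 0.567 in that order.

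Without animals 349 and 383, which are also the 2 libraries farthest from the median share, r was 0.535 in early neurons and 0.361 in early vessels. Without the 2 farthest late libraries, r was 0.572 in late vessels and 0.375 in late neurons. Leaving out a single animal kept r between 0.859 and 0.926 in early neurons, and it went as low as 0.653 in early vessels, without animal 349. The high r in the early sets thus rested in large part on these 2 animals together.

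Of the other abundant IDs, 1 more moved with the 16S row in neurons. ENSRNOG00000062127, the fifth most abundant ID of neurons, held 0.68% ± 0.39 of the counts outside the 16S row in early Wistar neurons (SD, n = 5) and 1.70% ± 0.60 in late ones (SD, n = 4), and 0.63% ± 0.13 and 1.72% ± 0.79 in SHRSP neurons (SD, n = 5 each). It rose in both strains by edgeR, with a log2 fold of 1.38 (SE 0.37, adjusted p = 0.0259) in Wistar and 1.5 (SE 0.36, adjusted p = 0.0164) in SHRSP. The call was lost without any 1 of animals 340, 343, 350, 353, 354 and 368 in Wistar neurons (adjusted p up to 0.115) and without animal 379 or 380 in SHRSP neurons (adjusted p up to 0.0593). It was also lost in Wistar neurons with no filter on low counts (adjusted p = 0.0841).

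Not every abundant row followed. Of the 4 IDs next in abundance to the 16S row in neurons, 2 rose with stage in each strain and none fell, where 5.84% of all tested IDs rose in Wistar and 6.12% in SHRSP neurons. The 4 were picked by mean share over early and late neuron libraries together, which favours IDs that are high late. ENSRNOG00000030371, not among the 4, held more than ENSRNOG00000062127 early (1.23% in Wistar and 1.17% in SHRSP neurons) and less late (0.97% and 0.77%). The 2 of 4 is therefore a description and not evidence beyond the share of all tested IDs. ENSRNOG00000062158 and ENSRNOG00000031979 had log2 folds of -0.65 and -0.21 in Wistar neurons and -0.55 and -0.39 in SHRSP neurons, and neither passed. Without animal 343, ENSRNOG00000062158 did pass as lower late in Wistar neurons (edgeR adjusted p = 0.0497). In vessels 0 of the 4 next most abundant IDs passed in either strain, and none of these IDs passed in any strain comparison of either material. These results are with TMM scaling and the filter on low counts. ENSRNOG00000031979 passed as lower in late Wistar vessels with DESeq2-type size factors (edgeR adjusted p = 0.0275) and with no filter on low counts (edgeR adjusted p = 0.0252).

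Between the materials, the 16S row had a fitted log2 fold of 0.11 (SE 0.19), vessels against neurons, with the animal as a block. ENSRNOG00000030478 was at 0.00 (SE 0.16, edgeR adjusted p = 0.990). Of the 5 other abundant IDs, 2 were higher in vessels, ENSRNOG00000031979 by 0.97 (SE 0.08, adjusted p = 1.64e-12) and ENSRNOG00000030371 by 0.89 (SE 0.14, adjusted p = 8.84e-05). ENSRNOG00000062127 was lower, at -0.87 (SE 0.18, adjusted p = 0.00115). In this comparison 34.3% of the 12117 tested IDs were called, the share against which 3 of 5 is read. Of these calls, 416 were higher and 3741 lower in vessels, and the median log2 fold over all tested IDs was -1.28. The folds of 0.11 and 0.00 above thus lie above that of the median ID in this fit. With no block for the animal the median was -0.34, with 848 calls higher and 1165 lower in vessels. The size of the offset between the materials therefore depended on the model. Each ID had a single spread for vessels and neurons in the fit.

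The likeness of every tested ID to the 16S share was described by Spearman's rho over the 19 libraries of a material, with each ID measured as counts per 1000000 counts outside the 16S row (CPM outside the row). These libraries share stage, strain and depth with the 16S row, so the values carry no test. In neurons the median over 10832 IDs was -0.09. There 10.96% of IDs had a rho of at least 0.7 and 6.32% had -0.7 or below. In vessels the median over 11010 IDs was 0.29, with 4.13% at 0.7 or above and 0.0636%, 7 IDs, at -0.7 or below. Over the early vessel libraries the share also rose with the IDs detected at equal depth (rho 0.903). IDs without counts in the libraries of low share rank low there together, and how much of the vessel values this makes up was not tested. ENSRNOG00000030478 had a rho of 0.867 in neurons, the 120th highest, and of 0.907 in vessels, the fourth highest.

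**Figure D5:**
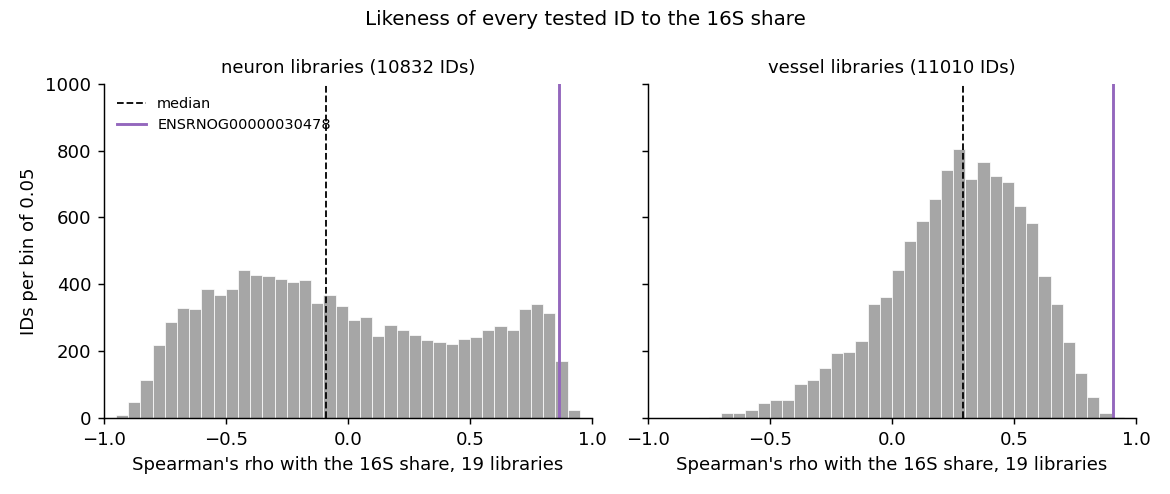
Number of IDs (y axis, per bin of 0.05) by Spearman's rho with the 16S share over the 19 libraries of a material (x axis), neurons on the left and vessels on the right, with the median dashed and ENSRNOG00000030478 as a solid line. Neuron IDs spread widely on both sides of 0, and most vessel IDs lie above 0.

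By the mean rho of the 2 materials, ENSRNOG00000002841 was the ID most like the 16S share, with 0.912 in neurons and 0.919 in vessels. In neurons its mean level was 126 CPM outside the row in the early Wistar group and 395 in the late Wistar group, and 106 and 308 in the early and late SHRSP groups. ENSRNOG00000025604 was next by this mean, with 0.860 and 0.921. Within late libraries alone its rho was 0.233 in neurons and 0.767 in vessels. Its level in vessels was low, with a median of 5.90 CPM outside the row. At the opposite end, ENSRNOG00000005257 had -0.858 and -0.772 and ENSRNOG00000014690 had -0.925 and -0.695. Within late libraries alone, rho of ENSRNOG00000005257 was -0.433 in neurons and 0.0667 in vessels, and within early libraries alone it was -0.721 and -0.673. Its opposite order was thus present among early libraries and weaker or absent among late ones. For ENSRNOG00000014690, rho within late libraries was -0.8 in neurons and -0.267 in vessels. In neurons alone the closest IDs were ENSRNOG00000058663 (0.958) and ENSRNOG00000001730 (0.937), and the most opposite were ENSRNOG00000025443 (-0.942) and ENSRNOG00000019798 (-0.926). In vessels alone ENSRNOG00000029220 and ENSRNOG00000025604 (both 0.921) were closest and ENSRNOG00000051650 (-0.861) and ENSRNOG00000019933 (-0.795) the most opposite. Each of the 2 closest was at 0.0 CPM outside the row in its lowest vessel library.

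A row of this size also changes how all other rows read when counts are only divided by the library total. From the group means of the 16S share, every other row moved by -0.40 on the log2 scale between early and late Wistar neurons without any change of its own part of the remaining counts. The same shift was -0.24 in SHRSP neurons, -0.16 in Wistar vessels and -0.19 in SHRSP vessels. Between strains it was 0.03 in early neurons, 0.19 in late neurons, 0.16 in early vessels and 0.13 in late vessels.

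With TMM scaling, the presence of the 16S row mattered little for the calls in neurons. The stage comparison called 1009 IDs in Wistar neurons (633 higher and 376 lower) with the row in the table and 995 with the row removed before scaling, filtering and fitting, and 964 IDs were called both ways. In SHRSP neurons the counts were 959 and 933, with 929 shared. Vessels against neurons gave 4157 and 4130 calls, with 4044 shared. The choice of animals mattered more. Without both 349 and 383, the stage comparison called 1894 IDs in Wistar neurons and 1577 in SHRSP neurons. It called 2 in Wistar vessels and 2008 in SHRSP vessels, where all libraries gave 1 in each. Leaving out animal 379 alone gave 180 in SHRSP neurons, and leaving out animal 343, a Wistar rat, gave 1951. Animals 349 and 383 were left out for their high early shares, which favours larger stage differences in IDs that follow the share. Leaving out animal 383 alone gave 1310 in SHRSP vessels.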

How the data were processed

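The deposited values are raw counts in whole numbers, 1 row for each of 32883 Ensembl IDs and 1 column for each of 38 libraries. HTSeq 0.6.1, STAR 2.5.3a, DESeq2 1.18.1 and FastQC 0.11.5 appear in the submitters' processing notes. Not given in the sources used here are the build, the annotation, the strand setting and the handling of reads with several matches, so a read shared by the 16S row and a nuclear copy of mitochondrial DNA could be counted in either or in neither. PicoPure served for RNA isolation and Lexogen's QuantSeq forward kit for the libraries, per the labels' protocols.

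Shares, and detection at equal depth (the hypergeometric expectation at 1117581 counts outside the row, the lowest such total), were computed in Python 3.11.15 with SciPy 1.17.1. The 19 libraries of a material were fitted with 4 groups in edgeR 4.0.16 (R 4.3.3), with TMM scaling, its filter on low counts and the robust quasi-likelihood F test. Vessels against neurons used all 38 libraries with the animal number of the titles as a block, since both libraries come from the same animal. Calls have a Benjamini-Hochberg adjusted p under 0.05 over all IDs tested, and p-values measure the spread between separately numbered animals. An SE is the log2 fold divided by the square root of F. The fits were tested on simulated data, where far fewer of the same changes were recovered in vessels than in neurons, so a change missed in vessels is weak evidence of none. Likeness used log2 of counts with 0.5 added, per 1000000 counts outside the row.

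The 16S row, the abundant IDs and the lists were chosen with earlier results of these data known, and neither the row nor any relation with its share gets a p-value. The relations with ENSRNOG00000030478 and with the counts outside the row were chosen after the data were seen. IDs named are the 5 most abundant of each material and the 2 most like and most unlike the 16S share in each material and over both. Gene lists and cell type markers need gene names and were not applied, and no sequence of the row is printed for the same reason. Alternatives were DESeq2 1.42.0, its size factors, no filter, the row removed, each animal left out, no block, other measures of detection and likeness and, added after seeing the data, animals 349 and 383 left out together.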

Additional observations from a re-analysis of the deposited data

Results flagged for a closer look

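In 24 sets of 4 or 5 libraries (3 measures in 8 groups), 8 had a highest or lowest library far from the rest by Dixon's criterion. The 16S share and the IDs detected are values by which the row was chosen, so the flags are descriptions and no test. For the share of the 16S row these were animal 351 in late Wistar neurons, low at 24.3%, animal 383 in early SHRSP neurons at 21.8% and in early SHRSP vessels at 17.7%, and animal 349 in early Wistar vessels at 40.6%. For the IDs detected, animal 343 was low in early Wistar neurons with 9501, and animal 374 was low in early SHRSP neurons with 11987; the latter is the library with the lowest total, 1198386 counts. For ENSRNOG00000030478, animal 383 in early SHRSP neurons stood at 7.25% of the counts outside the 16S row, and animal 349 in early Wistar vessels at 11.9%. The 3 measures come from the same libraries and are not independent. Animal 383 was high in the 16S share in both materials, and animal 349 in early Wistar neurons, at 24.6%, was the highest of its group without meeting the criterion.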

How the results depend on the processing

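Scaling by TMM-adjusted library size moved the share of the 16S row beyond its SD in late Wistar neurons alone (to 38.9%), and medians in place of means moved no group beyond its SD. Leaving out 1 animal moved the strain difference in early neurons between -5.23 and 1.30 points. In early neurons rho between share and IDs detected was 0.127. It was -0.00606 with IDs of at least 5 counts, -0.103 at equal depth of all counts, -0.571 without animals 349 and 383, and -0.200 to 0.283 with 1 animal left out. In late neurons, at -0.0500, it was 0.333 at equal depth outside the row and -0.310 to 0.357 with 1 animal left out. The rank correlation of ENSRNOG00000005257 with the 16S share was 0.0667 in late vessels. The causes were not tested.

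Counts of calls moved more. With the 16S row removed, Wistar vessels by stage gave 3 in place of 1. With DESeq2-type size factors there were 3 in Wistar vessels by stage, 2 in SHRSP vessels by stage, 55 by strain in early vessels (28 before) and 2 for the change of strain difference with stage in vessels (1 before). With no filter on low counts these were 4, 0, 16 and 3, and 7 by strain in late neurons (4 before). With DESeq2 the stage comparisons called 1556 (Wistar neurons), 1480 (SHRSP neurons), 34 (Wistar vessels) and 358 (SHRSP vessels). The strain comparisons called 73 (early neurons, 24 by edgeR), 16 (late neurons), 481 (early vessels) and 11 (late vessels; edgeR called 0 there, and 102 IDs had an unadjusted p under 0.05). It gave 128 for the change in vessels and 6352 for the materials. With no replicate block, pairing by animal given up, the materials gave 2013 in place of 4157, with 848 higher and 1165 lower in vessels. Without animals 349 and 383 the counts were 1894, 1577, 2 and 2008 by stage in the order above, 1484 by strain in early vessels, and 6 for the change in vessels.

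With 1 animal left out, calls by stage ranged from 197 (without 353) to 1847 (without 349) in Wistar neurons, 180 (without 379) to 1951 (without 343) in SHRSP neurons, 0 to 6 in Wistar vessels and 0 to 1310 (without 383) in SHRSP vessels. By strain they ranged from 8 to 35 in early neurons, 2 to 12 in late neurons, 7 (without 340) to 1137 (without 383) in early vessels and 0 to 1 in late vessels, and from 0 to 8 for the change in vessels. Pearson's r between the 16S share and ENSRNOG00000030478 ranged from 0.859 to 0.926 in early neurons, 0.653 to 0.961 in early vessels and 0.637 to 0.867 in late vessels. Without both animals it was 0.535 and 0.361 in the early sets. Counting error of a share was at most 0.11 points wide as a 95% interval.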
